A study of Gallus gallus with 3 samples.

Results

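The genes described here encode the cohesin subunits that are used in meiosis and the proteins of the synaptonemal complex, the ladder-like structure that zips paired homologous chromosomes together. A set of 10 genes was requested: SMC1B, STAG3, REC8, RAD21L1, SYCP1, SYCP2, SYCE1, SYCE2, SYCE3 and HORMAD1. They were looked up by gene symbol in a count table of 19152 chicken genes, which held 6 of them (SMC1B, RAD21L1, SYCP1, SYCP2, SYCE3 and HORMAD1). STAG3 was found under another symbol, STAGL, as 1 further gene: the NCBI gene number given in its deposited description is that of STAG3 in RefSeq, where STAGL is a synonym. It is described beside the 6 but kept out of their counts. The other 3 requested genes, REC8, SYCE1 and SYCE2, matched no row by symbol or gene number and were not analysed here. The genes were selected on measured values, namely their counts in PGCs against ESCs in these libraries, so that contrast is given below as a description, with no test.

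Cohesin is a ring that holds sister chromatids together. In meiosis, several of its mitotic subunits are replaced: in the mouse, SMC1B stands in for SMC1A, REC8 and RAD21L1 for RAD21, and STAG3 for STAG1 and STAG2. These rings organize a protein axis along each chromosome, to which HORMAD1 and SYCP2 bind, and SYCP1 filaments joined at a central element, of which SYCE3 is a part, then link the axes of homologs. In the chick embryo, female germ cells enter meiosis in the ovary well after migration to the gonads, and male germ cells do so only after hatching.

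RNA sequencing of cultured cells of the domestic chicken (Gallus gallus) was used. Primordial germ cells (PGCs), the precursors of eggs and sperm, which the study had isolated as migrating cells from embryonic blood and grown in culture, were represented by 2 libraries (replicates 2 and 3). Embryonic stem cells (ESCs), a cultured derivative of early embryonic somatic cells, were represented by 1 library (replicate 2). The labels named no treatment, genotype, strain or sex, and their protocol text named the same library provider for all 3 total RNA libraries. No value for the ESCs therefore has a replicate error of its own, and the PGC values are given as mean ± SD over n = 2 libraries.

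The libraries held 19754278 (PGC replicate 2), 20401551 (PGC replicate 3) and 20568106 (ESC) counts assigned to genes, and 14489 genes had at least 10 counts in 1 or more of them. Cell identity was checked with marker lists. The summed level of 8 germ cell markers was 4824 and 4749 CPM (counts scaled to library size) in the PGC libraries against 91.2 CPM for the ESCs, and 2 of the 8 markers, TDRD5 and MOV10L1, were at 0 there. The pluripotency factors NANOG and POU5F3 were detected in every library, at 4284 to 6131 and 6908 to 11106 counts. The 8 pluripotency markers were not uniform. By at least 2-fold in both PGC libraries, LIN28A was lower (70, 334 and 1210 counts in PGC replicate 2, PGC replicate 3 and ESCs). KLF4 was higher by the same measure (57, 49 and 17 counts), and SOX2 was low in every library (58, 34 and 36). The PGC libraries differed in mesenchyme and fibroblast markers: their sum over the 11 matched markers was 857 and 1317 CPM in PGC replicates 2 and 3 and 395 CPM for the ESCs, with 1 marker (TWIST1) at 0 in PGC replicate 3. The members of that list went both ways: of 10 tested, 1 (COL3A1, at 12768, 8382 and 237 counts) was at least 2-fold higher in both PGC libraries and 4 (PDGFRA, DCN, POSTN and THY1) were at least 2-fold lower, and the median log2 ratio was -0.59. The sum over 6 blood markers was 55.6, 50.6 and 79.9 CPM. By the edgeR test described below, PTPRC (291, 271 and 61 counts) and LCP1 were higher and ALAS2 and CD74 lower in PGCs. The call for LCP1 was lost with DESeq2, and its log2 ratios of 1.11 and 0.81 did not both reach 2-fold. Mitochondrial transcripts took 4.44%, 6.54% and 10.1% of the counts.

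Of the 6 genes, 4 were at least 2-fold higher in both PGC libraries than in the ESC library: SMC1B, SYCP1, HORMAD1 and SYCP2. Over all 14489 genes, 21.6% met the same criterion. SYCE3 and RAD21L1 were higher in each PGC library than in the ESC library, but by less than 2-fold in 1 PGC library each. STAG3 was at nearly the same level in the 3 libraries. The median over the 6 genes of the mean log2 ratio of PGC to ESC was 3.33, beside 0.03 over all genes. Since these values chose the genes, nothing is read from the contrast with the background. In such bulk samples, fewer cells of a type that makes a transcript and less of the transcript per cell cannot be told apart.

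**Figure D1:**
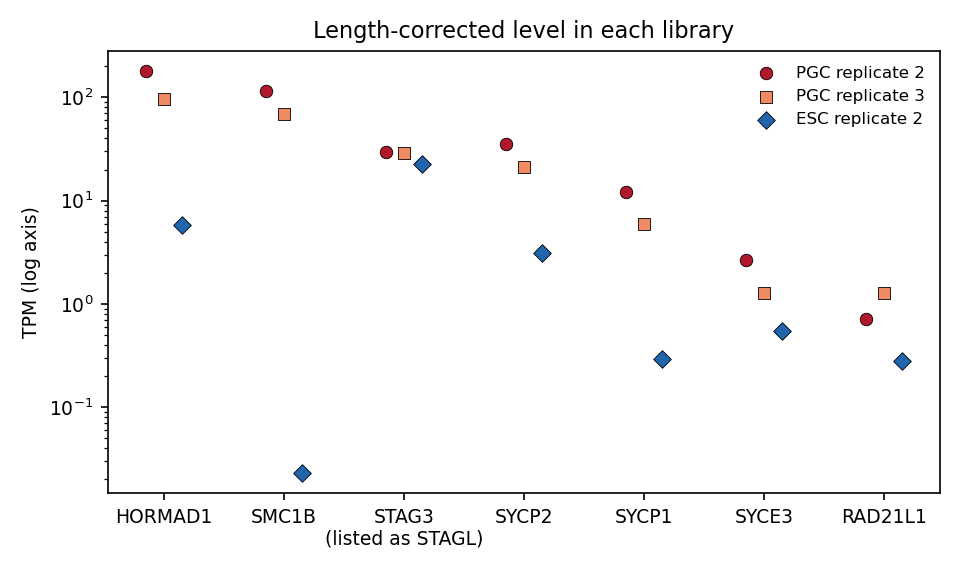
Level of each gene in each library in TPM (counts corrected for exon length and scaled to a common total) on a log axis, with 1 point per library. HORMAD1 and SMC1B were highest in both PGC libraries, SMC1B fell to 0.0231 TPM in the ESC library, and the 3 points of STAG3 lay between 22.8 and 29.7 TPM.

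SMC1B, the meiotic partner of SMC3 in the cohesin ring, lies on chromosome 1 of the galGal5 build (70455565 to 70491589, minus strand, 25 exon blocks with 3732 bases in all). It had 4237 and 2719 counts in PGC replicates 2 and 3 and a single count in the ESC library. These counts corresponded to 189 and 131 CPM in the PGC libraries (160 ± 41.5 CPM, SD, n = 2) and to 0.0563 CPM for the ESCs. A count of 1 lies below the floor of 3 counts, or 0.169 CPM, used here as the limit of detection in that library. The PGC libraries pooled were 2858 times the ESC library, with a 95% exact interval from 513 to 112896 that covers counting error only. It was the lowest of the 7 genes in the ESC library, and the only 1 that was at least 16-fold higher in both PGC libraries, as were 1.85% of all genes.

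RAD21L1, a meiotic form of the kleisin subunit that closes the ring, was barely expressed. The gene (chromosome 20, 10049738 to 10061414, minus strand, 16 exon blocks, 1839 bases) had 13 and 25 counts in PGC replicates 2 and 3 and 6 counts in the ESC library. Both PGC libraries lay above the ESC library, and the pooled ratio was 2.60 (95% counting interval 1.09 to 7.53). It was the only 1 of the 6 genes that was lower in PGC replicate 2 than in PGC replicate 3. Its log2 ratios to the ESC library were 0.64 and 1.57, so that the replicates differed almost as much from each other as from the ESC library.

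STAG3, the meiotic subunit that docks onto the kleisin, showed no such difference. The row listed as STAGL (chromosome 1, 130042506 to 130100185, minus strand, 32 exon blocks, 4593 bases) had 1344 and 1400 counts in PGCs and 1218 in ESCs. The level was 63.6 ± 5.08 CPM (SD, n = 2) in PGCs, and the ESC value of 68.6 CPM was 108% of the PGC mean. The mean log2 ratio was -0.11 ± 0.12 with this scaling, 0.21 when libraries were scaled by total counts and 0.36 with TPM, so its direction depended on the scaling. Those scalings moved the median of all genes by 0.31 and 0.46, and relative to that median STAG3 stayed slightly below it. The ESC library thus held the transcript of the row matched to STAG3 at the level seen in PGCs while SMC1B was at 1 count. That this row is the meiotic STAG3 rests on its gene number only, as sequences were not analysed here.

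SMC1A, the mitotic counterpart of SMC1B, matched no row, so SMC1B was set beside SMC3. The other mitotic counterparts, RAD21, STAG1 and STAG2, were detected in every library. SMC3, which is shared by mitotic and meiotic cohesin, had 9052, 9704 and 9613 counts, and RAD21, the mitotic kleisin, had 8134, 10437 and 10286. Within a library, the level of SMC1B per length was 46.1% and 27.6% of that of SMC3 in PGC replicates 2 and 3, and 0.0102% in the ESC library. RAD21L1 per length amounted to 0.318% and 0.477% of RAD21 in the PGC libraries and 0.116% in the ESC library. STAG1, another mitotic counterpart, was less abundant than SMC3 and RAD21, at 1295, 1227 and 1130 counts. STAG3 per length stood at 87.7%, 96.4% and 91.1% of STAG1 in the 3 libraries. STAG2 was more abundant than STAG1, at 3299, 3785 and 5239 counts. STAG3 per length was 41.9% and 38.0% of STAG2 in the PGC libraries and 23.9% in the ESC library. SMC1B transcripts were thus within several-fold of those of SMC3 in PGCs, whereas RAD21L1 was below 1% of RAD21 in all 3 libraries.

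The mitotic cohesin core was compared with the edgeR quasi-likelihood test across all 14489 genes, with Benjamini-Hochberg adjustment. This list and the other lists were chosen with earlier results of these data known. Their p-values and counts therefore describe these libraries and give no independent support. The edgeR test borrowed most of the variance of each gene from other genes (median prior degrees of freedom 8.92). Because 1 ESC library was compared with 2 PGC libraries, this test had 1 residual degree of freedom and assumed that the lone ESC library varies as the PGC libraries do, and 21.2% of all genes were called higher and 20.6% lower in PGCs. Of the 4 genes of the core that were matched, 1 passed: STAG2 was lower in PGCs, with a mean log2 ratio of -0.85 ± 0.21 (adjusted p = 0.0223), and this call was lost when libraries were scaled by total counts (adjusted p = 0.0703). The other 3 did not pass, at adjusted p = 0.384 for SMC3, 0.281 for RAD21 and 0.693 for STAG1 in edgeR, and the sign of their ratios turned with TPM. Among 8 matched factors that load, acetylate, release or protect cohesin, 2 were higher in PGCs by the same test: HDAC8, which deacetylates SMC3 (mean log2 ratio 1.33, edgeR adjusted p = 0.00282), and ESCO2, which acetylates it (0.86, edgeR adjusted p = 0.0255).

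The axis proteins came next. HORMAD1, which binds unsynapsed chromosome axes and promotes break formation there, had the highest level per length of the 7 genes in both PGC libraries. The gene (chromosome 25, 2314942 to 2319981, plus strand, 11 exon blocks, 1071 bases) had 1898 and 1082 counts in PGC replicates 2 and 3, against 72 in ESCs. At 180 and 95.4 TPM it stood above 93.1% and 86.1% of all genes tested in the PGC libraries, and at 5.79 TPM above 36.5% in the ESC library. The log2 ratios to the ESC library were 4.35 and 3.65, and the pooled ratio was 17.0 (95% counting interval 13.5 to 21.8).

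SYCP2, which forms the lateral elements together with SYCP3, had the smallest ratio of the 4 genes past 2-fold. It lies on chromosome 20 (7026294 to 7051788, minus strand, 47 exon blocks, 4673 bases) and had 1633 and 1050 counts in PGC replicates 2 and 3, against 169 in ESCs. The log2 ratios to the ESC library were 2.93 and 2.39, and the ESC library held 15.4% of the PGC mean. Its level of 3.12 TPM in the ESC library was therefore well above the floor, unlike that of SMC1B.

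SYCP1, the transverse filament protein, was lower in level but had a ratio like that of HORMAD1. The gene (chromosome 26, 3951941 to 3974291, plus strand, 31 exon blocks, 2943 bases) had 348 and 185 counts in PGC replicates 2 and 3, against 10 in ESCs. The mean log2 ratio was 4.16 ± 0.57, and the pooled ratio was 21.9 with a 95% counting interval from 11.8 to 45.9. Per length, SYCP1 reached 33.8% and 28.0% of SYCP2 in the PGC libraries and 9.40% in the ESC library.

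SYCE3, a central element protein that in the mouse is needed to load the rest of that element, was near the limit of counting. The gene (chromosome 1, 78348231 to 78351850, minus strand, 4 exon blocks, 1106 bases) had 29 and 15 counts in the PGC libraries and 7 in the ESC library. The pooled ratio was 2.58 (95% counting interval 1.15 to 6.80), and the mean log2 ratio was 1.12 ± 0.54 (SD, n = 2). SYCE3 stood at 22.2% and 21.6% of SYCP1 per length in the PGC libraries. In the ESC library, where these genes had 7 and 10 counts, the order was the reverse, with SYCE3 at 186% of SYCP1.

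The order of the mean levels per length in PGCs was HORMAD1, SMC1B, STAG3, SYCP2, SYCP1, SYCE3 and RAD21L1, but neighbours in this order were not all separated. HORMAD1 (180 and 95.4 TPM) was above SMC1B (115 and 68.8 TPM) in each PGC library, although their ranges over the replicates overlapped. The order of STAG3 (29.7 and 28.8) and SYCP2 (35.5 and 21.2) was reversed between the replicates. SYCP1 (12.0 and 5.93 TPM) lay apart from SYCP2 above it and from SYCE3 (2.67 and 1.28 TPM) below it. RAD21L1 (0.719 and 1.28 TPM) could not be separated from SYCE3. In the ESC library the order was different, with STAG3 first at 22.8 TPM and SMC1B last at 0.0231 TPM.

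**Figure D2:**
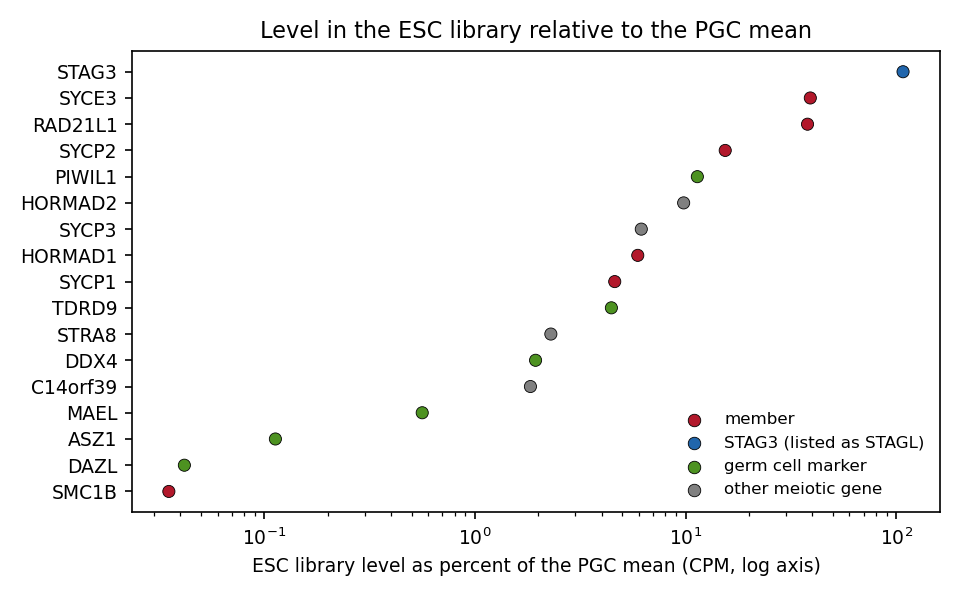
Level in the ESC library as a percentage of the PGC mean (CPM, log axis) for the 7 genes, for other meiotic genes and for germ cell markers that were above 0 in the ESC library. SMC1B (0.0352%, from 1 count) and DAZL (0.0417%) were lowest, and SYCP1, HORMAD1 and SYCP2 lay between 4.61% and 15.4%, as did PIWIL1 at 11.4%. The other germ cell markers shown lay below that range in value. TDRD9 was the highest of them at 4.45%, close to SYCP1 (4.61%, from 10 ESC counts).

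What the ESC library held of each transcript, as a share of the PGC mean, ranged widely. It was 0.0352% for SMC1B, a value that rests on 1 count below the floor, 4.61% for SYCP1, 5.93% for HORMAD1, 15.4% for SYCP2, 37.9% for RAD21L1 and 39.1% for SYCE3. The germ cell RNA-binding protein DAZL, at 45865, 47278 and 16 counts, gave 0.0417%, and the germ cell helicase DDX4, at 19644, 24278 and 352 counts, gave 1.94%. Of the other germ cell markers, ASZ1 (0.113%) and MAEL (0.562%) lay between DAZL and DDX4, and MOV10L1 and TDRD5 had 0 counts in the ESC library. Only TDRD9 at 4.45% and PIWIL1 at 11.4% lay above DDX4. The shares of SYCP1 and HORMAD1 were thus above those of DAZL and DDX4 and between those of TDRD9 and PIWIL1, and the share of SYCP2 was above that of PIWIL1. In PGCs, DAZL outnumbered HORMAD1 and SYCP2 in counts by more than 10 to 1, and in the ESC library it was below both, at 16 counts against 72 and 169.

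The PGC libraries differed from each other in these genes. The genes were chosen on PGCs against ESCs and not on this difference, but the 2 are not fully separate. Without PGC replicate 3, 3891 genes were at least 2-fold higher and 2945 lower than in the ESC library. Without PGC replicate 2, these counts were 3503 and 2594. The shares over all genes given below are therefore not matched to genes that are high in PGCs. With 1 library on each side, the difference can be given only with its counting error. SMC1B, SYCP1, SYCP2, SYCE3 and HORMAD1, or 5 of the 6 genes, were higher in PGC replicate 2 than in PGC replicate 3, beside 50.2% of all genes. The ratio of replicate 2 to replicate 3 was 1.45 for SMC1B (95% counting interval 1.38 to 1.52) and 1.45 for SYCP2 (1.34 to 1.57). It was 1.63 for HORMAD1 (1.51 to 1.76) and 1.75 for SYCP1 (1.46 to 2.10), so that these 4 intervals lay above 1. For SYCE3 it was 1.80, with an interval of 0.933 to 3.61 that included 1, and for RAD21L1 it was 0.484 (0.227 to 0.982).

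**Figure D3:**
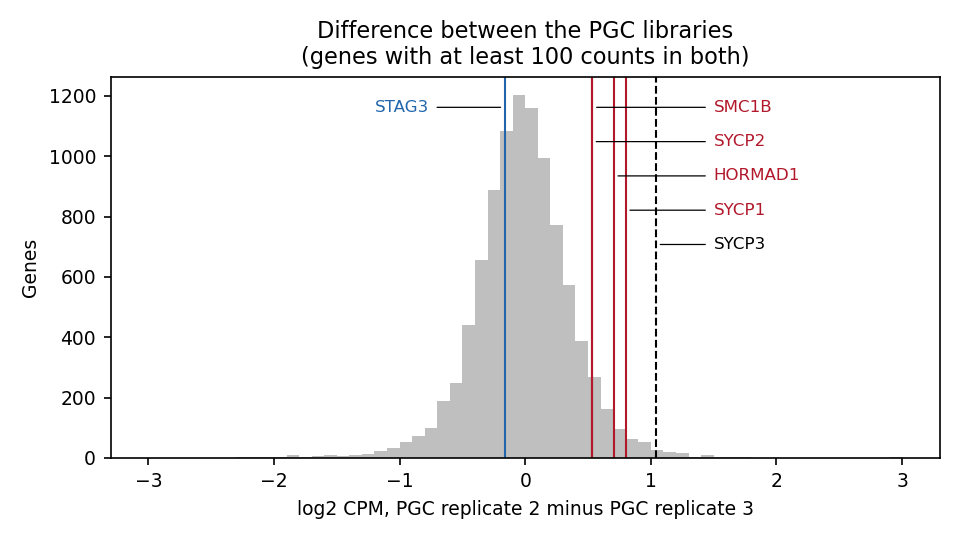
Histogram of the difference in log2 CPM between PGC replicate 2 and PGC replicate 3 over genes that reached 100 counts in each, with vertical lines for 5 of the genes described and for SYCP3. SMC1B, SYCP2, HORMAD1 and SYCP1 lay at 0.53 to 0.80 on the upper side, SYCP3 lay farther out at 1.04, and STAG3 lay near the centre at -0.16.

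Counting error leaves out other differences between libraries, so the replicate differences were also placed among all genes. Among 9667 genes that reached 100 counts in each PGC library, 47.7% were higher in replicate 2, as were all 4 of the 6 genes that reached this depth. The SD of the difference between replicates was 0.39 on the log2 scale, and 7.55% of genes were higher in replicate 2 by 0.5 or more. The difference of SMC1B, 0.54, was above that of 93.7% of these genes, that of SYCP2 (0.53) above 93.5%, that of HORMAD1 (0.71) above 97.0% and that of SYCP1 (0.80) above 97.9%. STAG3 differed by -0.16 and lay above 32.4%. SMC1B, SYCP2, HORMAD1 and SYCP1 were thus all in the upper tail of replicate differences, and STAG3 was not. The shift was not particular to SMC1B, SYCP2, HORMAD1 and SYCP1. The median difference was 0.46 over the 8 germ cell markers, of which 6 were higher in replicate 2. It was 0.52 over the 4 meiotic entry genes, of which 3 were higher there. Single genes that were higher in PGCs varied. MEIOC (-0.14) and SPDYA (0.0073) had no such shift, whereas TDRD9 (0.64) and RBM46 (0.95) did.

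Other measures moved between the same libraries. The sum of the mesenchyme and fibroblast markers was higher in replicate 3 (1317 against 857 CPM), although the list was uneven: the collagen gene COL1A2 had 1150 counts in replicate 2 and 6813 in replicate 3, whereas COL3A1 was lower in replicate 3. The pluripotency markers summed to 591 CPM in replicate 2 and 976 CPM in replicate 3. DAZL and DDX4 went the opposite way to SMC1B, SYCP1, SYCP2 and HORMAD1, with differences between replicates 2 and 3 of -0.15 and -0.41 on the log2 scale. The meiotic genes MEIOC (-0.14) and RAD21L1 (-0.94) were also lower in replicate 2. However, 6 of the 8 germ cell markers were higher in replicate 2. The part of these measures in the replicate differences of SMC1B, SYCP1, SYCP2 and HORMAD1 was not tested.

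SYCP3 and other components of the axis and of the synaptonemal complex, a list of 8 genes outside the requested set, were tested. Of the 5 that were matched, 3 were higher in PGCs by edgeR and 2 were lower, beside 21.2% and 20.6% of all genes. SYCP3, the main lateral element protein, had 2286, 1032 and 83 counts, with a mean log2 ratio of 3.90 ± 0.74 (edgeR adjusted p = 0.000201). HORMAD2, the paralog of HORMAD1, had 224, 79 and 12 counts, and its mean log2 ratio was 3.02 ± 0.97 (edgeR adjusted p = 0.00617). C14orf39, also known as SIX6OS1, a central element protein, had 88, 46 and 1 counts (edgeR adjusted p = 0.00238), with a pooled ratio of 55.1 and a 95% counting interval from 9.71 to 2191.

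TRIP13, the ATPase that removes HORMAD proteins from axes and also acts in the mitotic checkpoint, was lower in PGCs, with 1079, 931 and 1499 counts and a mean log2 ratio of -0.86 ± 0.08 (edgeR adjusted p = 0.0149). Its cofactor gene MAD2L1BP, at 269, 298 and 415 counts, had a mean log2 ratio of -0.83 (edgeR adjusted p = 0.0480). The call for TRIP13 was lost with scaling by total counts (edgeR adjusted p = 0.132), and that for MAD2L1BP was lost there (0.275) and with DESeq2 (adjusted p = 0.131). HORMAD1 per length was 304% and 201% of TRIP13 in the PGC libraries and 8.31% in the ESC library. SYCP3 overlaps the gene CHPT1 on the opposite strand by 19 exonic bases, and the strand setting of the counting was not given in the sources used here.

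**Figure D4:**
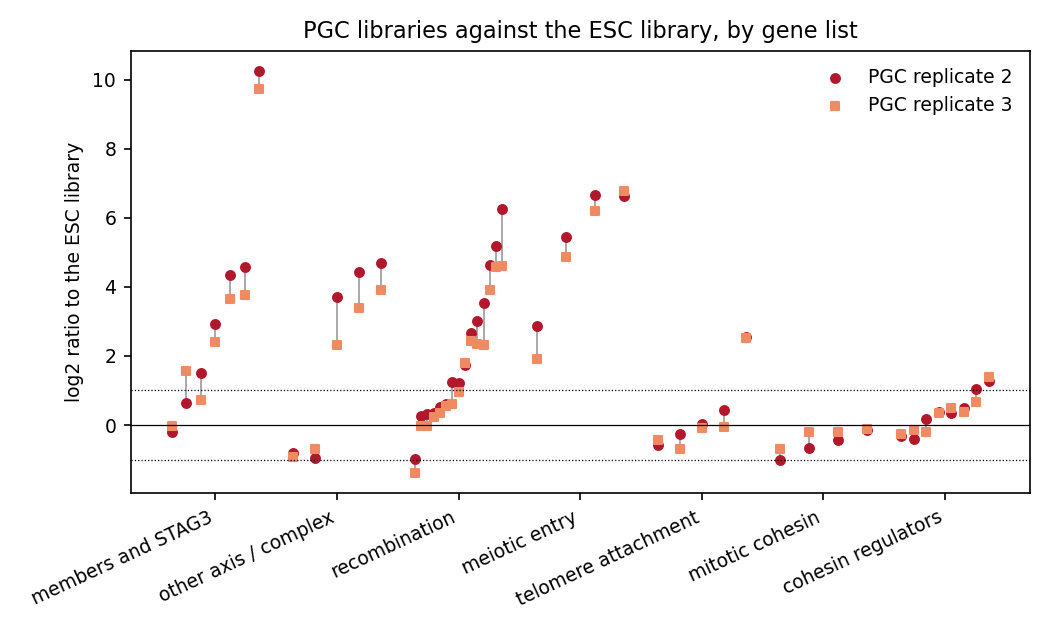
Log2 ratio of TMM-scaled CPM, each PGC library against the ESCs, for the 7 genes described and for 6 related gene lists, 1 pair of points per gene joined by a line, with dotted lines at 2-fold. The 4 meiotic entry genes lay above 2-fold in both PGC libraries, recombination genes ranged upward from a mean of -1.18 for SPO11, and mitotic cohesin lay near or below 0 with this scaling (3 of its 4 genes turned sign with TPM).

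The regulators of meiotic entry that were matched, 4 of a list of 7, were all higher in PGCs by edgeR, as were 21.2% of all genes. STRA8, which starts the meiotic program, had 594 and 368 counts in PGCs and 9 in ESCs (mean log2 ratio 5.17 ± 0.41, edgeR adjusted p = 5.79e-05). MEIOC, which stabilizes the meiotic program in the mouse, had 342, 351 and 1 counts (edgeR adjusted p = 2.86e-05), or a pooled ratio of 285 with a 95% counting interval from 50.9 to 11262. DMRT1, a Z-linked transcription factor of the gonad and germ line, had 2138, 1442 and 15 counts (mean log2 ratio 6.43, edgeR adjusted p = 5.48e-06). RBM46, an RNA-binding partner of MEIOC in the mouse, had 2370, 1142 and 256 counts (2.39 ± 0.67, edgeR adjusted p = 0.00117).

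Meiotic recombination genes were mixed. Of 15 matched from a list of 25, 9 were higher in PGCs by edgeR, beside 21.2% of all genes, and all 9 calls were also made with DESeq2, with both other scalings and without the count filter. MEI1, which is needed to form double-strand breaks, had 2106, 1268 and 44 counts (mean log2 ratio 4.88, edgeR adjusted p = 2.3e-05). Its partner REC114 had 264, 77 and 1 counts (edgeR adjusted p = 0.00129) and overlaps NPTN on the opposite strand by 162 bases, 20.4% of its length. MEI4, another partner, had 53, 29 and 0 counts, which against the floor of 3 counts was at least 11.1-fold higher (edgeR adjusted p = 0.00359). SPO11, the enzyme that cuts the DNA, went the other way in value, with 38, 26 and 61 counts, and did not pass (mean log2 ratio -1.18, edgeR adjusted p = 0.104). Genes for the cut were thus not uniform: 3 accessory factors were higher in PGCs and the catalytic subunit did not pass.

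The strand exchange recombinase DMC1 had 200, 193 and 46 counts (mean log2 ratio 1.77, edgeR adjusted p = 0.00967). HSF2BP, which links BRCA2 to meiotic recombination sites, had 3064, 1781 and 299 counts (2.68, edgeR adjusted p = 0.000308), and the crossover factor CNTD1 had 2324, 1857 and 292 (2.54, edgeR adjusted p = 0.000122). The crossover helicase HFM1 (272, 108 and 17 counts), TEX11 (940, 726 and 318) and MND1 (1579, 948 and 530) were the other 3 that passed, at edgeR adjusted p = 0.00445, 0.0109 and 0.0322. MSH4, MLH3, PSMC3IP and MEIOB were among those that did not pass. Of the 15 recombination genes, 14 were higher in PGC replicate 2 than in replicate 3, beside 50.2% of all genes, with a median difference of 0.34.

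Telomere attachment genes tether meiotic chromosome ends to the nuclear envelope. Of 5 matched from a list of 8, 1 was higher by edgeR, a share near the 21.2% of all genes. This was SPDYA, an activator of CDK2 at telomeres, which had 457, 423 and 61 counts (mean log2 ratio 2.53, edgeR adjusted p = 0.000548). TERB1, a telomere adaptor that is specific to meiosis in the mouse, had 1584, 1106 and 1515 counts and did not pass (-0.48, edgeR adjusted p = 0.170). The ESC level was 138% of the PGC mean for TERB1, 233% for SPO11 and 108% for STAG3.

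In mouse ESCs, the repressor complex PRC1.6 binds the promoters of germ line genes, several meiotic cohesin and synaptonemal complex genes among them. Of 13 subunit genes matched from a list of 15, 2 were higher and 4 lower in PGCs by edgeR, beside 21.2% and 20.6% of all genes, so that the counts did not set the list apart. PCGF6, the subunit that defines this form of the complex, had 1870, 1447 and 308 counts (mean log2 ratio 2.13, edgeR adjusted p = 0.000349), and the ubiquitin ligase RNF2 had 1845, 1462 and 614 (1.13, edgeR adjusted p = 0.00658). L3MBTL2, another subunit particular to this complex, had 924, 958 and 1576 counts (-1.02, edgeR adjusted p = 0.00679), and HDAC1 had 1171, 1649 and 3586 (-1.65, edgeR adjusted p = 0.00138). HDAC1 shares 34.2% of its exonic length with another gene on the same strand, LCK. MAX (edgeR adjusted p = 0.0483) and TFDP1 (0.0387) were also lower, but MAX lost the call in 3 of 4 alternatives and TFDP1 with total counts (0.165). The DNA-binding subunit E2F6 had 1251, 1325 and 1196 counts and did not pass (-0.18, edgeR adjusted p = 0.583).

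The adjacent genes were also examined. RIBC2, a gene for a ciliary microtubule protein, starts 338 bases upstream of SMC1B on the opposite strand. It had 87, 56 and 2 counts, with a pooled PGC to ESC ratio of 29.4 (95% counting interval 7.98 to 245), so that both genes of this head-to-head pair were higher in both PGC libraries. The downstream neighbour UPK3A, 33470 bases away, had 1, 3 and 2 counts. GOLPH3L, 1201 bases downstream of HORMAD1 on the same strand, had 11, 8 and 81 counts, with log2 ratios of -2.98 and -3.27, and so went the opposite way to HORMAD1. PSMF1, 7101 bases upstream of RAD21L1, had 1639, 1222 and 450 counts. STAG3 has neighbours on the opposite strand on both sides. GTPBP6, 696 bases upstream, had 498, 323 and 300 counts, and PPP2R3B, 1295 bases downstream, had 1444, 1278 and 817. No exon of the 7 genes overlapped an exon of another gene in the deposited coordinates.

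The 5 named genes whose profile over the 3 libraries was nearest to the median profile of the 6 genes, by Euclidean distance of gene-centred log2 CPM among 9992 candidates, were FOLH1, PKIA, ACKR2, TM4SF1 and KIF9. Their distances were 0.0644, 0.0670, 0.0675, 0.0707 and 0.0861. FOLH1 had 1282, 825 and 80 counts, KIF9 had 659, 455 and 42, and TM4SF1 had 518, 333 and 32. With 3 libraries, the likeness says only that each was higher in PGCs by a similar ratio and higher in replicate 2 than in replicate 3. Of the 6 genes themselves, HORMAD1, SYCP2 and SYCP1 lay nearest to their own median profile, at 0.526, 0.595 and 0.671, and SMC1B lay farthest at 5.39.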

How the data were processed

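The authors extracted total RNA with TRIzol, had paired-end Illumina sequencing done, mapped reads to Ensembl gene transcripts of galGal5 (TopHat with Bowtie 2) and counted them with featureCounts. The versions of these tools and the strand setting are not given in the sources used here. The submitters' processing notes also name bcl2fastq 1.8.4 and MultiQC 1.7. The authors deposited raw counts per gene with exon coordinates and a length, which equalled the union of the exons in 19152 of 19152 genes. A second deposited table of 16030 genes held a normalized signal, equal to the counts after division by 1 size factor for each library, and the authors' fold changes and p-values from DESeq2, which were not used. A further 4 columns of per-sample values matched no sample label and were not used.

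Genes reaching 10 counts in any of the libraries were kept (14489, with 4663 removed). CPM was scaled by trimmed mean of M-values (TMM; edgeR 4.0.16 under R 4.3.3), and log2 values used a prior count of 2. TPM was computed from counts and exon length. A gene was called by ratio when both PGC libraries differed from the ESC library by at least 2-fold the same way. Genes outside the requested set were tested with the edgeR quasi-likelihood test and Benjamini-Hochberg adjustment (threshold 0.05), and DESeq2 1.42.0 was an alternative. The edgeR and ratio steps were run on simulated data with 200 changed genes. All 3 simulated libraries were drawn with the same variability, so the assumption about the lone ESC library was not tested there. Intervals are exact at 95%, and intervals and the floor of 3 counts cover counting error only. Nothing in the labels says that the replicates came from separate cultures, although the study calls them biological replicates. The p-values rest on the spread between the 2 PGC libraries and on variance shared over genes, with no spread from the ESCs.

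The genes described and all lists were chosen with earlier results of these data known. Genes named in the text were the requested genes, the genes of the lists, and the 5 nearest profiles among genes with a mean of at least 1 CPM. Adjacent genes were named because of their position. Symbols were taken from the deposited tables (11804 genes), or through the NCBI gene number in RefSeq (1024 further genes, assembly GRCg7b, names only). The lists held 134 symbols, older names included, and 94 were matched. Sequences of these genes were not analysed here.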

Additional observations from a re-analysis of the deposited data

How the results depend on the processing

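Alternatives were other scalings (DESeq2 size factors, total counts, TPM, and, chosen after seeing the data, the authors' size factors), no count filter, a prior count of 0.5, a 4-fold or stricter p threshold, DESeq2, and leaving out each PGC library. SMC1B, SYCP1, HORMAD1 and SYCP2 were at least 2-fold higher in PGCs under every scaling, filter and prior count, and 4 of the 6 genes also passed 4-fold. With TPM, 6 of 6 passed, and without PGC replicate 2 or without PGC replicate 3 the count was 5. Mean log2 ratios ranged from 9.67 to 10.92 for SMC1B, 3.65 to 4.46 for HORMAD1, 3.75 to 4.60 for SYCP1, 2.39 to 3.13 for SYCP2, 0.73 to 1.53 for SYCE3, 0.67 to 1.56 for RAD21L1 and -0.16 to 0.36 for STAG3. The count of 5 genes higher in PGC replicate 2 was the same under each scaling, filter and prior count run. Over all genes, 3124 were higher and 2293 lower by 2-fold, against 1491 and 859 by 4-fold, 3872 and 1644 with total counts and 4295 and 1426 with TPM, and leaving out a PGC library gave 3503 to 3891 and 2594 to 2945. The edgeR test called 3069 higher and 2979 lower, against 2441 and 2303 with DESeq2, 4161 and 2063 with total counts, and 1766 and 1730 at an adjusted p under 0.01. Of 407 alternatives to 57 results, 45 moved the value by more than a set margin. Smaller changes were not counted as moves, such as 3124 to 4295 genes or 4 to 6 of the 6 genes with TPM. STAG3, which was not called, changed sign with total counts (0.21) and TPM (0.36). Leaving out a PGC library leaves 1 library against 1, a value with no test. No paired analysis was possible because the groups share fewer than 2 replicate numbers. Counts of 29 or fewer limit SYCE3 and RAD21L1, and the single ESC library limits every comparison of cell types.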
